A study of Mus musculus with 12 samples.

Results

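The genes described here are 40 cell cycle genes, 18 of S phase and 22 of G2 and M phase, whose RNA marks nuclei that are copying their DNA or dividing. They were taken by gene symbol from the 55335 genes listed in the deposited tables, and each of the 40 was found once and had counts. Before a cell divides it copies its chromosomes in S phase, with the MCM helicase opening the DNA, polymerases copying it and ribonucleotide reductase supplying the building blocks. In G2 and M phase condensins and topoisomerase II fold and untangle the copies, kinesins build the spindle, and cyclin B with Cdk1 drives the cell through mitosis. E2F factors are known to switch on the S phase genes, whereas many G2/M genes are controlled through a promoter element called the cell cycle genes homology region (CHR), often with CCAAT boxes beside it. In the newborn forebrain most projection neurons have left the cycle, while astroglia, oligodendrocyte precursors, vascular cells, microglia and precursors of olfactory interneurons still divide.

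Nuclei had been isolated from frozen forebrain of 12 mice of the MYT1L S710fsX line at postnatal day 1 (P1), 8 wild-type (WT) and 4 heterozygous (Het) animals. Het animals carried 1 frameshift allele of Myt1l, a transcription factor gene of neurons, in every cell, and no further allele or treatment was given in the labels. Each library was 1 animal, named here WT 1 to WT 8 and Het 1 to Het 4, with WT 6, WT 7, WT 8 and Het 4 female and the others male. The tissue was forebrain per the labels, the labels did not tie the animals to litters, and the labels' replicate numbers restart within each sex.

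The files held 126684 barcodes, 0 of them shared between libraries, with 15439429 to 40784144 unique molecular identifiers (UMIs, tags that mark single captured RNA molecules) per library. After the filter and the removal of 3947 marked doublets, 94164 nuclei were kept, 4453 to 10862 per library, with library medians of 1701 to 2052 UMIs per nucleus. Doublet marking took a larger share of nuclei with many cell cycle UMIs, 8.63% of those with at least 3 G2/M UMIs against 4.02% of all nuclei that passed the filter. Nuclei in clusters with high doublet scores remained among the kept nuclei, as given below. WT 4 stood apart in its makeup, with 11.7% inhibitory-like nuclei against a WT median of 21.5%, and several counts and sums are also given without it. Myt1l itself had 1422 ± 111 CPM (UMIs of a gene scaled to a common total of 1e+06 UMIs) over the 8 WT and 1570 ± 52.3 CPM over the 4 Het libraries (mean ± SD) in all kept nuclei, with an edgeR log2 fold change of 0.11 (SE 0.06, adjusted p = 0.561). Whether the frameshift changes the level of the transcript was not tested, so this level did not check the genotype labels.

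The promoters of the members carried the letters of the elements named above to different degrees in the S and G2/M lists. RefSeq promoters of GRCm38.p6 (250 bases before to 50 bases after the start) were on hand for 33 members, 15 of the S and 18 of the G2/M list. The E2F letters searched (TTTCCCGC, TTTGGCGC, TTTGCCGC or TTTCGCGC, either strand) were present in 8 of 15 S promoters (53.3%), in 1 of 18 G2/M promoters (5.56%) and in 2.61% of 27025 genes. The CHR letters (TTTGAA or TTCGAA, either strand) were present in 1 of 15 S promoters (6.67%), in 15 of 18 G2/M promoters (83.3%) and in 21.7% of all genes. CCAAT on either strand stood in 13 of 15 S promoters (86.7%), 15 of 18 G2/M promoters (83.3%) and 41.1% of all genes, and CHR letters together with CCAAT stood in 1, 13 (72.2%) and 8.61%, respectively.

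The 120 bases before the start are shown for 3 G2/M members that hold CHR letters beside CCAAT and for 3 S members, chosen after the matches were seen, to show how the promoters of the lists differ. Capitals mark every match on either strand.
Top2a, chr11:99024190-99024309, minus strand: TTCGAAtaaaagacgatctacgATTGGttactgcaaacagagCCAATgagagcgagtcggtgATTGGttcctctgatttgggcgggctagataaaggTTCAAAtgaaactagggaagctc
Cdk1, chr10:69352913-69353032, minus strand: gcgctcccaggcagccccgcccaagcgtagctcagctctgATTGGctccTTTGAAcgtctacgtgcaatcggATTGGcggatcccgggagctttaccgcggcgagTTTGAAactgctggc
Hmgb2, chr8:57511723-57511842, plus strand: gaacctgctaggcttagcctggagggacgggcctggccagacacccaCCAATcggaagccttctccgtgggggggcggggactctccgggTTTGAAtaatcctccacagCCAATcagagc
Mcm6, chr1:128359706-128359825, minus strand: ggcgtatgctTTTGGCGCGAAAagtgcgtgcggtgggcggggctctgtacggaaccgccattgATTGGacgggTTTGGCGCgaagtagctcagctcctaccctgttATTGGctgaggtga
Dtl, chr1:191575545-191575664, minus strand: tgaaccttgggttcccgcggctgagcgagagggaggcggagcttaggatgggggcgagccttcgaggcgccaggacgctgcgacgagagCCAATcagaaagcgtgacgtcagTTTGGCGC
Pola1, chrX:93632156-93632275, minus strand: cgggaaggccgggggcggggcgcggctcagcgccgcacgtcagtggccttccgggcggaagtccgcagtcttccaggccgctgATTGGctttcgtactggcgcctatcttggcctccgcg
Top2a and Cdk1 each held 2 CHR matches in these bases, Hmgb2 held 1, and Mcm6 held 3 E2F matches, of which 2 overlap. Pola1 held a CCAAT match only, and its E2F match lay outside the bases shown. A match is a description of letters and shows no binding.

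The S list held 56133 UMIs over all kept nuclei and the G2/M list 43707. Pola1, the catalytic subunit of DNA polymerase alpha, gave 62.3% of the S list. It is a gene of 327 kb on chromosome X (93304767 to 93632155 on the minus strand, GRCm38). Atad2, a chromatin ATPase of S phase, gave 7.81% of the S list, Brip1, a helicase that works with BRCA1, gave 4.12% and Rrm1, the large subunit of ribonucleotide reductase, gave 3.74%. The G2/M list was less uneven, with Smc4, a core subunit of condensin, at 19.7%, Top2a, the topoisomerase that untangles sister chromatids, at 11.3%, Mki67, the source of the Ki-67 antigen, at 10.7% and Kif20b, a kinesin of cytokinesis, at 6.45%. Of the 40 members 19 overlap another gene in the annotation, among them Pola1, Top2a and Smc4, and UMIs of overlapping genes may have been divided between them.

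Clusters were made without the 40 members and without a further list of 129 cell cycle genes, so that no cluster formed on these counts directly. Of the 54 clusters, 1 of 1257 nuclei, called the cycling cluster here, was led by Neil3, a glycosylase of replicating cells, ahead of Knl1, Top2a and Bub1. It scored highest for the intermediate progenitor list (2.34, next glial 1.36, mean log2 difference of a list's markers from the other nuclei), but it was left unnamed because 8 of its 10 leading genes were cell cycle genes and 0 were markers of that list. It held 1.33% of the kept nuclei, 8.10% of all S UMIs and 16.4% of all G2/M UMIs. Its level was 2723 CPM for the S list and 4297 CPM for the G2/M list, each the highest of the 54 clusters. It was picked as the cluster with the most cell cycle genes among its 10 leading genes, so these levels in part restate that choice. Cycling nuclei of any class that fell into it are not counted in the classes described next.

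Of the 40 members 39 were highest in the cycling cluster, and 38 were lowest in excitatory-like nuclei among the 8 groups plotted in the map of members by group. The cycling cluster was picked by its leading cell cycle genes, so its place at the top in part restates that choice. The exception at the top was Helb, DNA helicase B, with 11.4 CPM in the cycling cluster, 22.9 CPM in cluster 43 and 14.1 CPM in vascular-like nuclei. The ratio of the cycling cluster to excitatory-like nuclei ran from 5.37 for Helb through 7.05 for Gins2 and 8.35 for Pola1 to 228 for Top2a and 301 for Aurkb, the kinase of the chromosomal passenger complex. Its median was 32.3 in the S list and 64.2 in the G2/M list. Per kb of gene length, in the cycling cluster, Mki67 (22.5 CPM per kb), Top2a (21.7), Smc4 (18.1), Pcna (17.4), Rrm2 (16.5) and Hmgb2 (16.0) stood at the top, Pola1 at 2.96 and Helb lowest at 0.387.

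**Figure D1:**
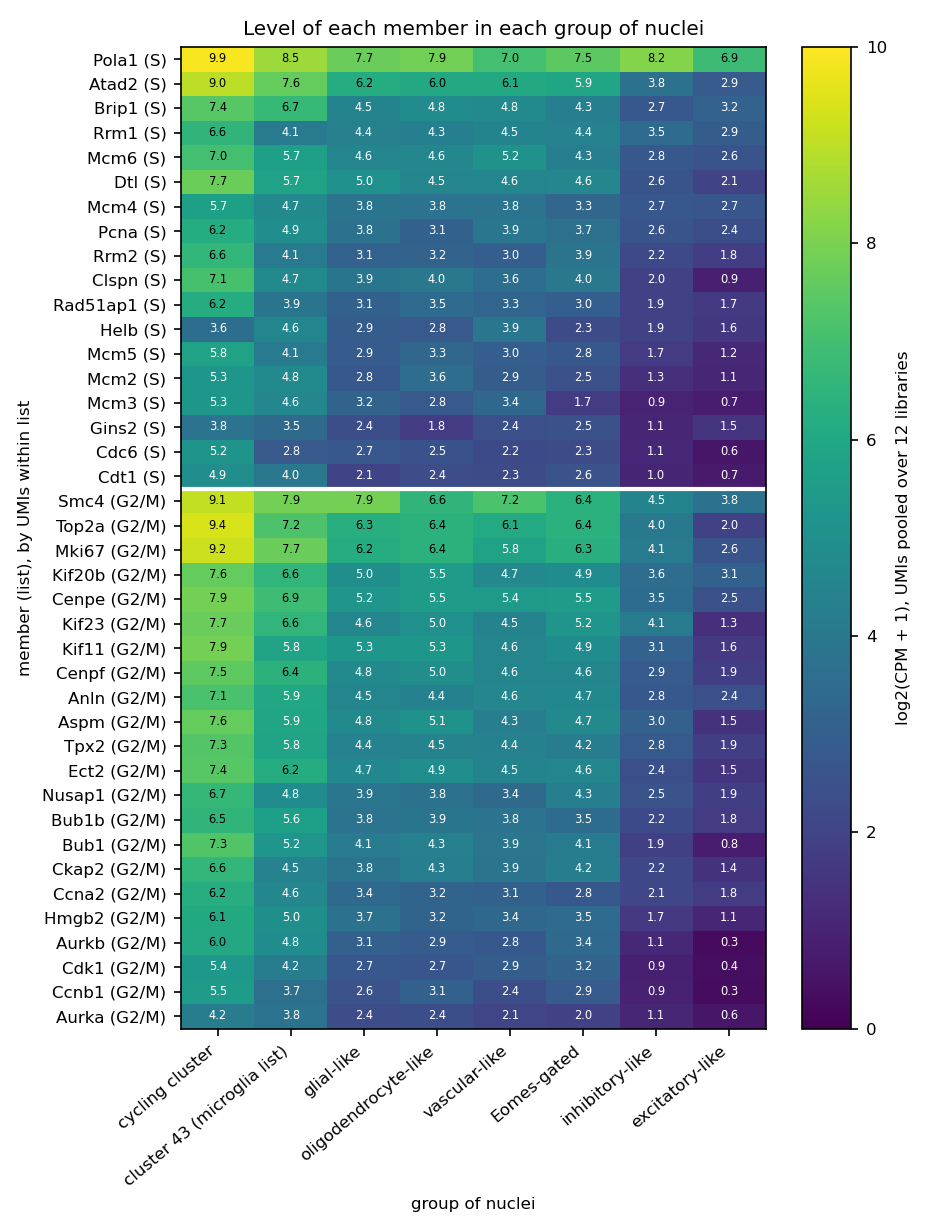
Level of the 40 members (rows, S above the white line and G2/M below it, ordered by UMIs) in 8 groups of nuclei (columns), as log2(CPM + 1) of UMIs pooled over the 12 libraries. The cycling cluster is the brightest column for 39 members, and Pola1 stays bright in inhibitory-like (283 CPM) and excitatory-like nuclei (116 CPM), while Top2a falls from 678 CPM in the cycling cluster to 15.4 and 2.97 CPM there.

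The classes had been named from marker lists, so that all 12 glial, 11 oligodendrocyte, 22 inhibitory or striatal and 22 vascular markers were raised in the class named for them restates that rule. The vascular-like class joined clusters of the endothelial list with clusters of the mural and fibroblast list, which held 75.6% of its nuclei. In oligodendrocyte-like nuclei Pdgfra, the receptor of precursors, stood at 809 CPM against 12.7 CPM elsewhere, while Mag, a protein of mature myelin, stood at 2.53 CPM. Cluster 43 (413 nuclei) scored highest for the microglia list but was led by Mrc1, F13a1, Stab1 and Lyve1, which are genes of border macrophages, and it is called cluster 43 here. Clusters 15, 38, 40 and 46, with 3524 nuclei in all, were left unnamed for a high median doublet score (0.69 to 0.73). They stayed among all kept nuclei, with 6.40% of the S and 7.22% of the G2/M UMIs.

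Summed G2/M levels set the groups apart by more than the spread over libraries in several places. Across the 12 libraries the G2/M sum ran from 48.8 to 78.4 CPM in excitatory-like nuclei (40262 nuclei), from 111 to 203 CPM in inhibitory-like nuclei (19857), from 534 to 1226 CPM in glial-like nuclei (7284), from 383 to 1640 CPM in oligodendrocyte-like nuclei (3206) and from 315 to 1422 CPM in vascular-like nuclei (4529). Excitatory-like and inhibitory-like ranges did not overlap, and neither overlapped those of the other 3 classes. Without cluster 22, described below, inhibitory-like libraries had 61.3 to 107 CPM, which overlapped the excitatory-like range. Glial-like, oligodendrocyte-like and vascular-like ranges overlapped widely, so these neighbours were not set apart. Cluster 43 spanned 660 to 3533 CPM and the cycling cluster 3246 to 5530 CPM.

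The S sum set the classes apart less sharply. It ran from 150 to 181 CPM in excitatory-like, from 308 to 404 CPM in inhibitory-like, from 312 to 664 CPM in glial-like, from 368 to 798 CPM in oligodendrocyte-like and from 247 to 677 CPM in vascular-like nuclei, so inhibitory-like nuclei overlapped the 3 dividing classes. Without Pola1 the inhibitory-like sum was 68.6 CPM in WT and 70.8 CPM in Het libraries, close to the excitatory-like 50.6 and 56.1 CPM and far below the glial-like 275 and 272 CPM. Pola1 alone stood at 283 CPM in inhibitory-like nuclei, above glial-like (208 CPM), oligodendrocyte-like (230 CPM) and vascular-like nuclei (127 CPM).

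**Figure D2:**
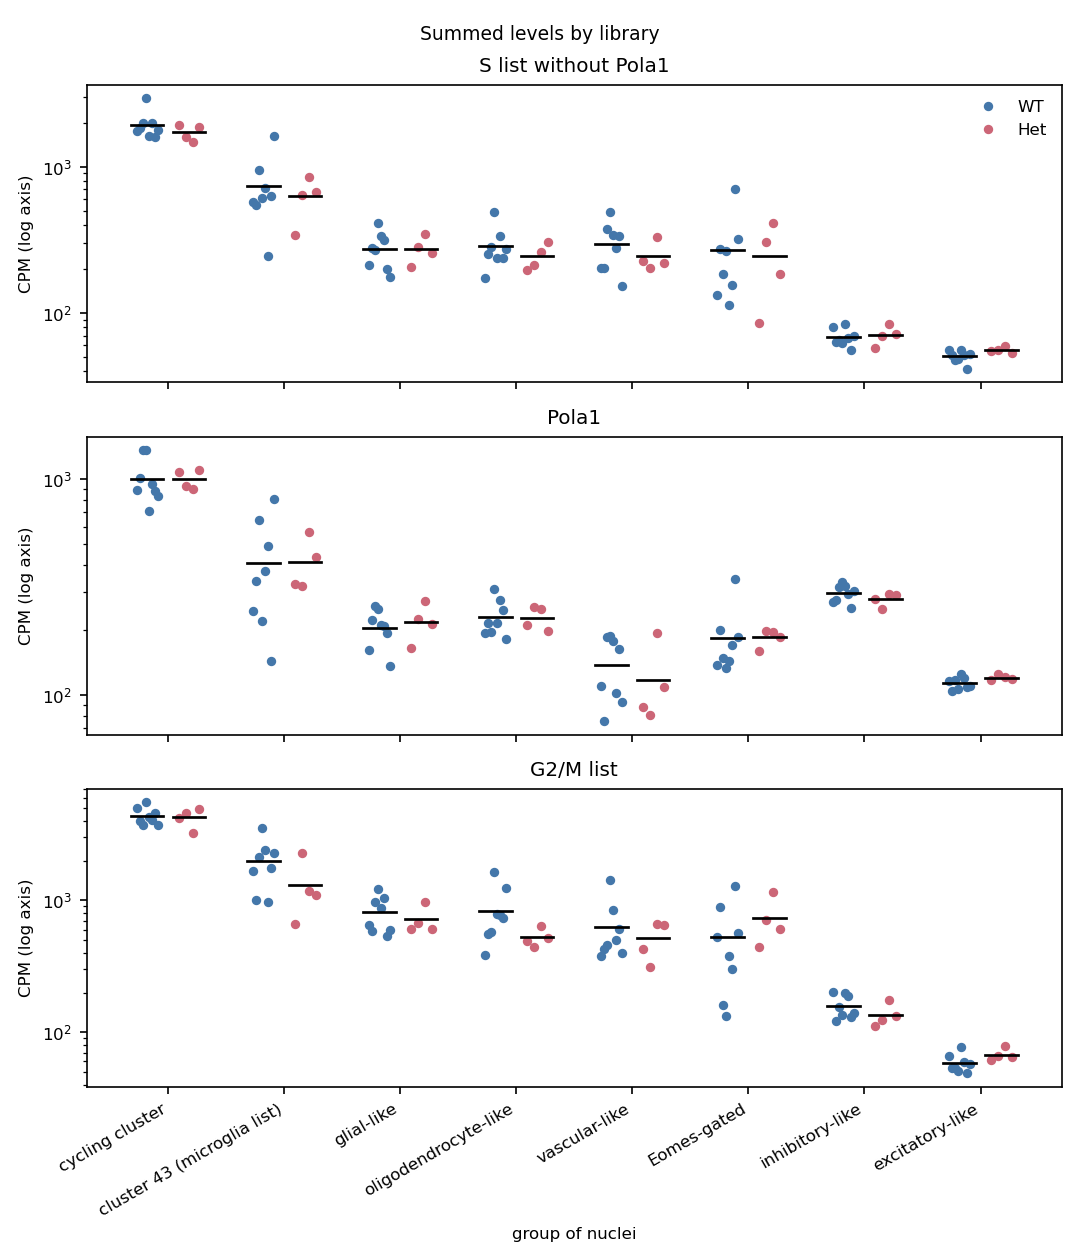
Levels of each of the 12 libraries in CPM on log axes by group of nuclei, for the S list without Pola1 (top), Pola1 alone (middle) and the G2/M list (bottom), with WT in blue, Het in red and a bar at each mean. WT and Het points overlap in every group, the G2/M levels of excitatory-like (48.8 to 78.4 CPM) and inhibitory-like nuclei (111 to 203 CPM) lie apart from the glial-like ones (534 to 1226 CPM), and Pola1 alone does not follow that order.

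Over the 54 clusters the S and G2/M sums moved together, with a Pearson r of 0.844 and a Spearman rho of 0.822 on log2(CPM + 1). With Pola1 left out of the S sum r was 0.963, and Pola1 itself had r = 0.455 with the rest of its list (rho 0.296). These are descriptions over clusters that share libraries and depth. Pola1 was highest after the cycling cluster in inhibitory-like clusters 18 (532 CPM), 24 (510 CPM) and 22 (488 CPM). In clusters 18 and 24, led by Nxph2, Elfn1 and Lhx6 among others, the rest of the S list had 58.7 and 41.96 CPM, whereas in cluster 22 it had 431 CPM.

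A few clusters and members departed from the common pattern. Kif23, a kinesin of the central spindle, had 55.8 CPM in cluster 24 and 49.0 CPM in cluster 27, both Lhx6-expressing inhibitory-like clusters, near its 66.2 CPM in cluster 22. Top2a, by contrast, was at 2.51 and 3.75 CPM in clusters 24 and 27 and at 191 CPM in cluster 22, and Mki67 at 5.76 and 8.52 CPM and at 164 CPM. Cluster 42, led by the axonemal genes Dnah12 and Dnah3 as multiciliated cells are, ranked sixth of 54 in G2/M sum (946 CPM) but only 22nd in S sum (301 CPM). There Top2a had 293 CPM (232 UMIs), against 678 CPM in the cycling cluster and 85.4 CPM in oligodendrocyte-like nuclei. Cenpf, a kinetochore protein, had 96.1 CPM in cluster 42 and 183 CPM in the cycling cluster. Mki67 had 17.7 CPM (14 UMIs) in cluster 42, against 598 CPM in the cycling cluster and 85.6 CPM in oligodendrocyte-like nuclei. Among glia Smc4 was at 208 CPM in cluster 10 and 259 CPM in cluster 4, while Top2a was at 33.3 and 111 CPM and Mki67 at 29.5 and 104 CPM.

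**Figure D3:**
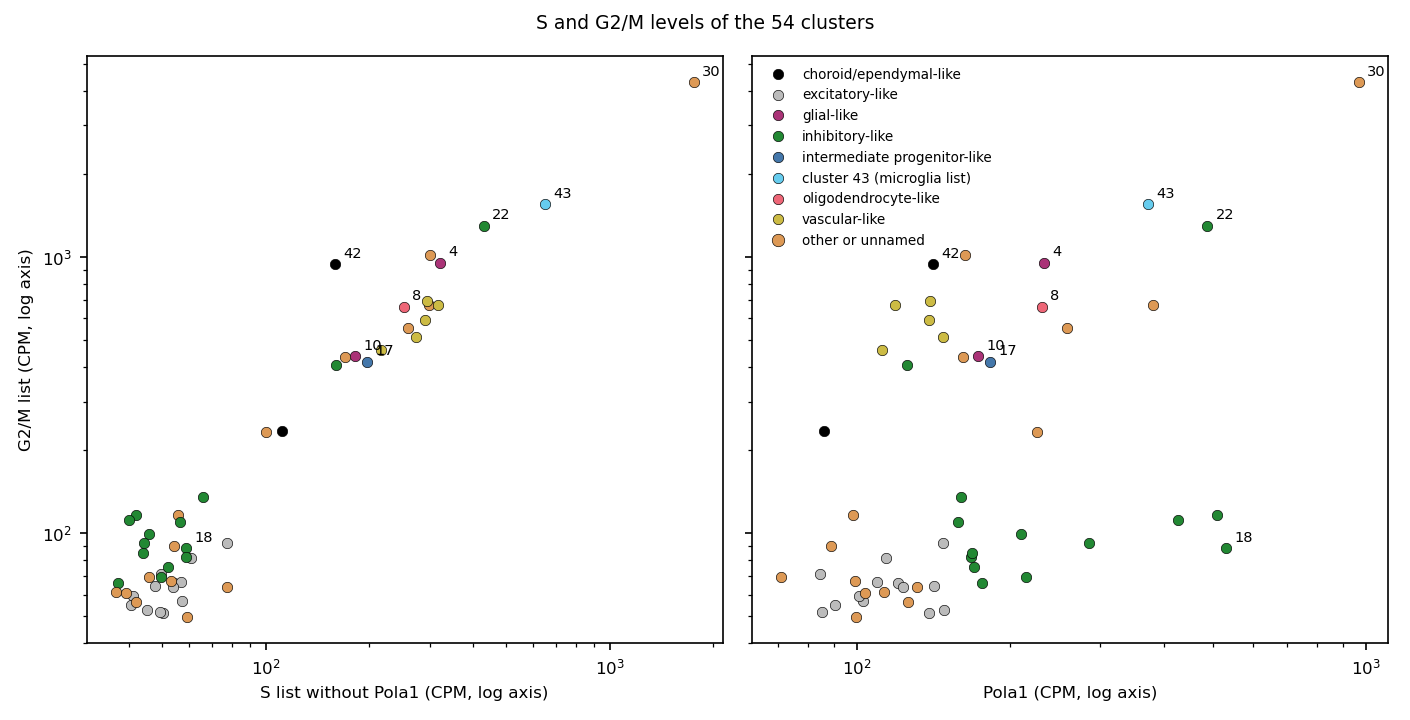
G2/M level of the 54 clusters against the S list without Pola1 (left) and against Pola1 alone (right), in CPM on log axes, with UMIs pooled over libraries, colours for classes and numbers for some clusters (30 is the cycling cluster). The points lie closer to a line on the left (r 0.963) than on the right (r 0.504), cluster 42 lies high for its S level on the left, and cluster 18 lies far to the right with Pola1 at 532 CPM.

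The glial-like class joined 2 clusters that differed in these genes. Cluster 4, led by Tnc, had 954 CPM in G2/M and 554 CPM in S, and cluster 10, led by Lhcgr, Veph1 and Hgf, had 438 and 355 CPM. Cluster 4 held 56.6% of the glial-like nuclei and 75.1% of their G2/M UMIs. Among inhibitory-like nuclei cluster 22, led by Tshz1, Dlx1, Dlx2 and Sp8, which mark immature olfactory interneurons, had 1300 CPM in G2/M and 919 CPM in S. It held 8.16% of the inhibitory-like nuclei and 46.6% of their G2/M UMIs. Of the 4529 vascular-like nuclei 75.6% lay in clusters that scored for the mural and fibroblast list, among them clusters 28, 32 and 35, led by Ptgds, Tbx18 and Slc47a1 among others, and 24.4% in the endothelial cluster 31. Clusters 28, 32 and 35 held 29.0%, 24.3% and 17.7% of the class, and cluster 51, led by Atp13a5 and Abcc9, held 4.61%. The name vascular-like thus covers mostly nuclei that were not endothelial. The joint list does not set fibroblasts apart from mural cells, so most of the class may not be cells of vessels. Among vascular-like clusters cluster 31, led by Flt1 and Kdr, had the most G2/M UMIs (34.2% of the class).

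G2/M UMIs were gathered in few nuclei. Of 94164 nuclei 77934 had 0 G2/M UMIs, 11527 had 1, 1981 had 2 and 562 had exactly 3. The 2722 nuclei with at least 3 included 609 of the cycling cluster, 505 glial-like, 372 inhibitory-like, 296 vascular-like, 238 oligodendrocyte-like and 115 excitatory-like nuclei. A further 254 lay in the clusters left unnamed for a high doublet score. A cut at 3 UMIs is a point on a continuous range and defines no cell type. As a guide to background, 0.265% ± 0.156 of excitatory-like nuclei were over it in WT libraries (SD, n = 8), with a higher UMI depth than the dividing classes. At least 3 S UMIs were found in 4741 nuclei, 1396 of them inhibitory-like, and 1422 nuclei were over both cuts.

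Eomes-gated nuclei, those with at least 1 UMI of the T-box gene of intermediate progenitors, were 746 or 0.792% of the kept nuclei. In classes that should lack the gene the share was 0.309% (vascular-like, median 1535 UMIs) and 0.156% (oligodendrocyte-like, median 1465 UMIs), against a median of 1891 UMIs over all kept nuclei. The gate was mixed. It held 207 nuclei of the intermediate progenitor-like cluster 17, 195 of cluster 36, which had markers of olfactory bulb projection neurons, 50 of the cycling cluster and 32 of the Cajal-Retzius-like cluster 47. Clusters 15, 38, 40 and 46, left unnamed for a high doublet score, gave 27, 14, 13 and 3 nuclei. Neurog2, a proneural gene of progenitors, stood at 13.8 CPM in the gate against 0.841 CPM outside it, and Cdhr1, a cadherin of olfactory projection neurons, at 38.0 against 1.61 CPM.

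Cell cycle levels differed between these clusters within the gate. The gated nuclei of cluster 17 had 671 CPM in S and 1469 CPM in G2/M, those of the cycling cluster 2292 and 3727 CPM, and those of clusters 36 and 47 only 68.6 and 78.3 CPM in G2/M. Of the 207 gated nuclei of cluster 17, 29 had at least 3 G2/M UMIs. Cluster 17 as a whole, mostly without an Eomes UMI, had 418 CPM in G2/M.

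**Figure D4:**
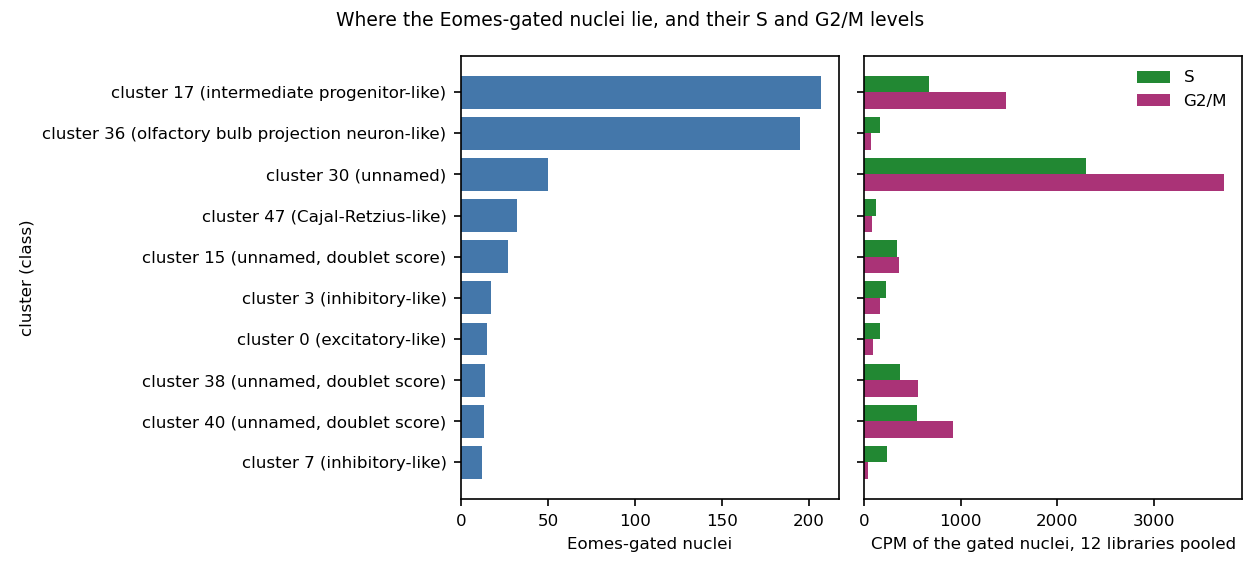
Left, number of Eomes-gated nuclei in each of the 10 clusters that held most of them. Right, S and G2/M levels of those gated nuclei in CPM, pooled over 12 libraries. Cluster 30 is the cycling cluster, and the gate joins clusters with high (cluster 17, 1469 CPM in G2/M) and low levels (cluster 36, 68.6 CPM).

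To ask whether the cell cycle genes differed between genotypes, UMIs were summed per library and group of nuclei and fitted with edgeR's quasi-likelihood test. Calls needed an adjusted p (Benjamini-Hochberg over all genes tested) under 0.05 together with a log2 fold change beyond 0.2 in either direction. No member was called in any of the 9 groups fitted: 0 of 40 tested in all kept nuclei, 0 of 27 in glial-like, 0 of 15 in oligodendrocyte-like, 0 of 29 in inhibitory-like, 0 of 22 in vascular-like, 0 of 30 in excitatory-like, 0 of 5 in Eomes-gated nuclei, 0 of 4 in cluster 43 and 0 of 27 in the cycling cluster. The background was 0.0% of all genes called in each group. DESeq2 called 0 members in each group as well, beside 66 genes in all in excitatory-like nuclei (0.423%), 17 in all kept nuclei (0.0845%) and 1 in inhibitory-like nuclei (0.00736%). The members not tested in a group fell below the filter on low counts.

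At an unadjusted p under 0.05, 7 of the 15 members tested in oligodendrocyte-like nuclei were lower in Het and 0 higher, against 2.71% of all genes lower at this p (5.24% in either direction). The filter on low counts, which here asked for 27.3 CPM in at least 4 libraries, bears on that count. Of the 15 members 9 reached it in at least 4 WT but not in all 4 Het libraries, 0 did the other way round, and 5 of the 7 were among the 9, so members that were high in WT were favoured and the count supports no direction. Fitted without the filter, 13 of all 40 members were lower at this p and 0 higher, 12 of them G2/M members, against 1.55% of all genes lower. Without WT 4 the counts were 2 with the filter (4.56% of all genes in either direction) and 6 of 40 without it (1.53% of all genes lower). With nuclei taken by marker gates in place of clusters the count was 0 of 11 tested (3.78% of all genes), and with the replicate block it was 0 (5.02% of all genes), with Top2a at a log2 fold change of -0.27 in place of -0.75. In that block WT 4, WT 5, WT 7 and WT 8 had no Het library of the same sex and number. They therefore did not bear on the genotype difference there.

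In the other groups the counts of members past this p were lower. In glial-like nuclei 1 of 27 was past it (6.73% of all genes), in inhibitory-like nuclei 2 of 29, both lower (4.68% lower and 8.47% in either direction among all genes), in vascular-like nuclei 0 of 22 (3.75%), in excitatory-like nuclei 3 of 30, all higher (5.55% higher and 12.4% in either direction among all genes), in all kept nuclei 2 of 40 (9.89%), in the cycling cluster 1 of 27 (6.02%), in Eomes-gated nuclei 0 of 5 (4.09%) and in cluster 43 0 of 4 (7.37%). These counts and those of oligodendrocyte-like nuclei above are a description, since the members share cells and move together. Nusap1, the 1 past it in the cycling cluster, was lower and reached the filter in at least 4 WT but not in all Het libraries.

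Over all kept nuclei the sums of the genotypes overlapped. The S sum was 267 ± 17.2 CPM over the 8 WT and 283 ± 24.1 CPM over the 4 Het libraries (mean ± SD), and the G2/M sum was 211 ± 15.4 and 216 ± 35.0 CPM. The differences, Het minus WT, were 16.4 CPM for S, which was 6.73 CPM without Het 3 and 26.1 CPM without Het 1, and 4.97 CPM for G2/M, which was -11.2 CPM without Het 3 and 15.0 CPM without Het 1. With Pola1 left out the S difference was 7.50 CPM. The most abundant members stayed close between genotypes. Pola1 had 152, 166 and 189 CPM as the lowest, median and highest WT library, and 159, 176, 185 and 183 CPM in Het 1 to Het 4. Top2a had 19.6, 23.7 and 27.7 CPM in WT and 20.1, 21.7, 31.6 and 22.4 CPM in Het libraries. All Het libraries lay inside the WT range for Pola1, and all but Het 3 did for Top2a. For Mki67 the WT libraries had 18.6, 23.2 and 27.1 CPM and the Het libraries 15.7, 23.8, 29.7 and 24.4 CPM, with Het 1 below and Het 3 above the WT range.

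Atad2, Brip1 and Rrm1 of the S list and Smc4 and Kif20b of the G2/M list were read in the same way over all kept nuclei. Atad2 had 18.6, 21.3 and 23.0 CPM in WT and 18.7, 21.6, 27.2 and 19.96 CPM in Het. Brip1 had 9.07, 10.7 and 14.7 CPM in WT, the highest in WT 4, and 10.5, 10.9, 15.3 and 10.5 CPM in Het. Rrm1 had 8.87, 9.82 and 11.8 CPM in WT and 8.95, 10.1, 11.4 and 12.3 CPM in Het. In each of these, 1 Het library at most passed the highest WT library. Smc4 had 35.6, 40.3 and 42.7 CPM in WT and 43.2, 39.5, 51.1 and 43.7 CPM in Het. Kif20b had 11.6, 13.4 and 16.8 CPM in WT and 13.1, 12.8, 15.9 and 13.4 CPM in Het. For Smc4 3 of 4 Het libraries lay above all WT libraries, with a log2 fold change of 0.11 (SE 0.07, edgeR adjusted p = 0.588).

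The members with the smallest p over all kept nuclei were of the S list. Helb had 2.64, 2.90 and 3.27 CPM as lowest, median and highest WT library and 4.07, 4.12, 3.23 and 3.28 CPM in Het 1 to Het 4, with a log2 fold change of 0.29 (SE 0.11, edgeR adjusted p = 0.404). Mcm3, a subunit of the replicative helicase, had 1.23, 1.84 and 2.34 CPM in WT and 1.87, 2.91, 3.14 and 2.67 CPM in Het, with a log2 fold change of 0.47 (SE 0.18, adjusted p = 0.415). In each case 3 of 4 Het libraries lay above every WT library and 1 lay within their range.

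In oligodendrocyte-like nuclei the G2/M sum was lower in Het on average, with overlap. The G2/M sum was 383, 558, 579, 1640, 785.5, 769, 737 and 1249 CPM in WT 1 to WT 8 and 492, 445, 641 and 523 CPM in Het 1 to Het 4. The means were 837.5 ± 411 CPM over the 8 WT and 525 ± 83.4 CPM over the 4 Het libraries (mean ± SD), a ratio of 0.627. All Het libraries lay above WT 1 and below the 5 WT libraries from WT 4 to WT 8, and WT 4 and WT 8 were far above the rest. Without WT 4 the WT mean was 723 CPM and the ratio 0.726. The S sum differed less, with 515 ± 132 CPM in WT and 473 ± 47.6 CPM in Het and a ratio of 0.919, or 0.997 without WT 4.

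Few nuclei carried this G2/M signal. WT libraries had 8 to 36 oligodendrocyte-like nuclei with at least 3 G2/M UMIs and Het libraries 8 to 33, or 9.11% ± 4.53 of the class over the 8 WT and 5.85% ± 1.22 over the 4 Het libraries (mean ± SD). The difference in this percent, Het minus WT, was -3.26, and -1.87 without WT 4. With every nucleus thinned to 800 UMIs and a cut of 2 UMIs the shares were 8.79% and 5.11%. The genotypes overlapped in each of these measures. The class made up 3.17% of the WT and 3.62% of the Het nuclei on average (two-sided exact permutation test, p = 0.529, adjusted p = 0.858 over 7 groups). Precursor and myelin genes overlapped between genotypes, with Pdgfra at 876 ± 133 CPM in WT and 778 ± 56.8 CPM in Het, Bcas1 of differentiating cells at 276 ± 84.9 and 270 ± 59.6 CPM, and Mbp of myelin at 43.3 ± 32.0 and 59.0 ± 45.3 CPM. Their part in the result was not tested.

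By gene, and without the filter on low counts, 20 of the 22 G2/M members had a negative log2 fold change in oligodendrocyte-like nuclei (median -0.52) and 10 of the 18 S members did (median -0.15), against 45.2% of all genes below 0 and a median of 0.06. Without WT 4 these counts were 17 of 22 (median -0.39) and 10 of 18 (median -0.06), against 44.4% of all genes. Since the members move together and rest on few nuclei, such counts, here and in the groups below, are a description and not separate observations. Among the 4 S members that passed the filter Brip1 was at -0.43, Dtl at -0.39, Atad2 at -0.31 and Pola1 at 0.01. Anln, anillin of the contractile ring, had 12.5, 28.8 and 49.9 CPM as lowest, median and highest WT library and 9.57, 13.5, 10.6 and 12.01 CPM in Het 1 to Het 4. Its log2 fold change was -1.30 (SE 0.37, edgeR adjusted p = 0.759). The Het libraries lay below 7 of 8 WT libraries, with only Het 2 above the lowest WT library, and Anln reached the filter in 4 WT and 0 Het libraries.

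Top2a had 62.7, 91.1 and 211 CPM in WT and 62.8, 50.0, 82.1 and 48.0 CPM in Het, with a log2 fold change of -0.75 (SE 0.23, adjusted p = 0.759). Cenpf had 14.6, 32.9 and 98.8 CPM in WT and 16.2, 18.6, 16.6 and 32.8 CPM in Het, with a log2 fold change of -1.09 (SE 0.38, adjusted p = 0.831). For Top2a 2 Het libraries lay below all WT libraries and the others in the lower part of the WT range, and for Cenpf all Het values lay within the WT range and 1 Het library reached the filter. Kif20b (-0.73), the kinetochore motor Cenpe (-0.76), the spindle kinesin Kif11 (-0.74) and Smc4 (-0.50) had log2 fold changes in the same direction, with edgeR adjusted p-values from 0.865 to 0.908. Without WT 4 Kif20b was at -0.44 and Cenpe at -0.47, and Kif11 ran from -1.17 without Het 3 to -0.49 without Het 2.

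Mki67, which reached the filter in every library, had 36.3, 79.0 and 235 CPM in WT and 57.4, 81.1, 94.5 and 67.2 CPM in Het, which lay inside the WT range. Pola1 had 229 ± 44.6 CPM in WT and 228 ± 28.9 CPM in Het. With the filter, the number of members at an unadjusted p under 0.05 was between 3 and 10 with each library other than WT 4 left out, when 3.95% to 8.12% of all genes were past it.

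**Figure D5:**
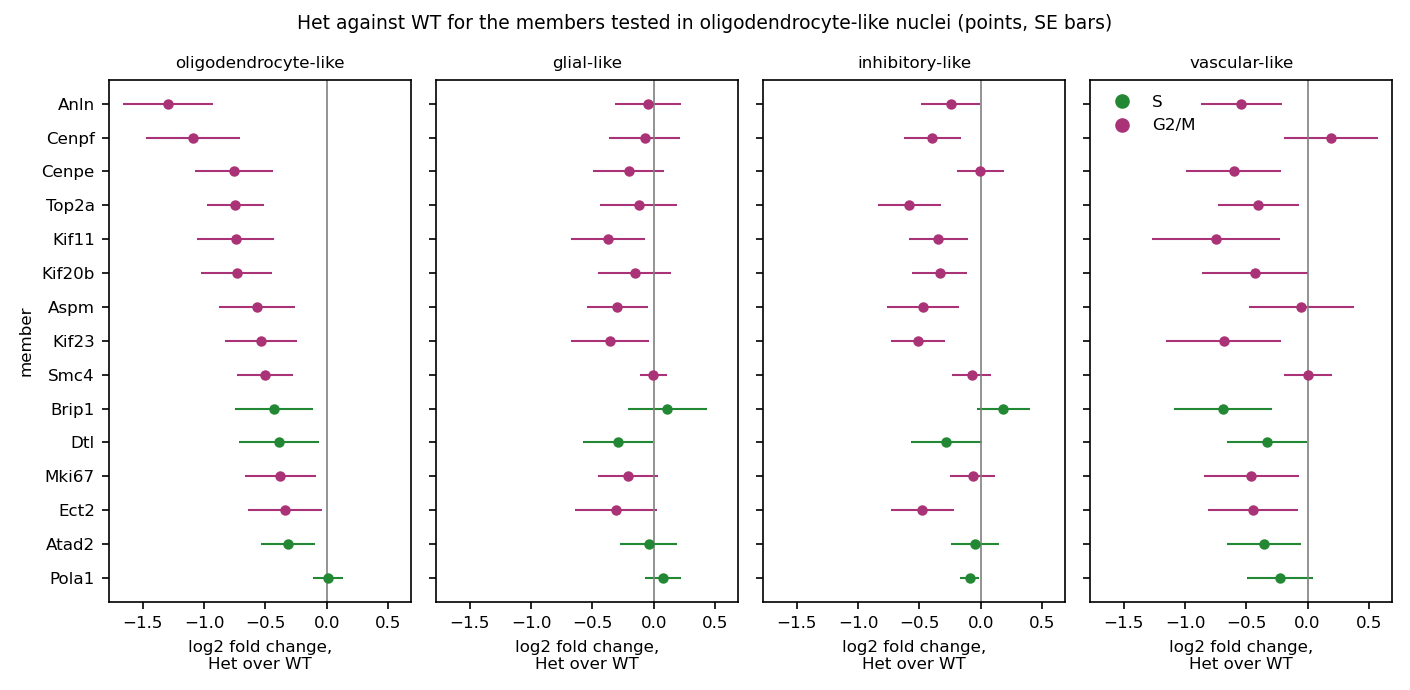
Log2 fold change of Het over WT (points, with SE bars) for the members that could be tested in oligodendrocyte-like nuclei, shown by class of nuclei in separate panels and coloured by list. In the oligodendrocyte-like panel the G2/M points all lie left of 0, from -1.30 for Anln to -0.34, among members of which 9 of 15 passed the filter on low counts in at least 4 WT but not in all Het libraries, and no member was called in any panel.

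In glial-like nuclei the G2/M sum was 655, 586, 966, 1226, 878.5, 1041, 534 and 601 CPM in WT 1 to WT 8 and 604, 678.5, 980 and 605 CPM in Het 1 to Het 4. The means were 811 ± 253 CPM over the 8 WT and 717 ± 179 CPM over the 4 Het libraries (mean ± SD), and all Het values lay inside the WT range. The ratio of the means was 0.884, or 0.954 without WT 4. The difference, Het minus WT, was -93.8 CPM, and it was -34.5 CPM without WT 4 and -182 CPM without Het 3. The S sums were 480 ± 113 and 491 ± 102 CPM, a difference of 10.6 CPM that was -31.8 CPM without Het 3 and 50.6 CPM without Het 1. With Pola1 left out the sums were 275 and 272 CPM, a difference of -2.7 CPM. Without the filter on low counts 16 of 22 G2/M members had a negative log2 fold change (median -0.16), against 47.5% of all genes, and 12 of 22 did without WT 4 (median -0.09), against 48.7%. Both counts describe members that move together. Within cluster 4 the G2/M sum was 1002 ± 301.5 and 1026 ± 408 CPM, and within cluster 10 it was 506 ± 157 and 399 ± 64.0 CPM, each overlapping.

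The glial-like members with the smallest p were of the S list and pointed in opposite directions. Pcna, the sliding clamp of replication, had 1.80, 9.404 and 17.9 CPM in WT and 18.4, 13.6, 19.7 and 12.7 CPM in Het, with a log2 fold change of 0.72 (SE 0.33, edgeR adjusted p = 0.709). Clspn, claspin of the replication checkpoint, had 8.71, 15.3 and 26.9 CPM in WT and 6.996, 8.57, 18.8 and 9.91 CPM in Het, with a log2 fold change of -0.50 (SE 0.31, adjusted p = 0.819). Clspn was at -0.92 without Het 3 and -0.33 without Het 1. For Pcna all Het libraries were above the WT median, and for Clspn 3 of 4 were below it. The filter on low counts asked here for 11.8 CPM in at least 4 libraries. Of the 27 members tested, 3 reached it in at least 4 WT but not in all 4 Het libraries. In 1 member all 4 Het but fewer than 4 WT libraries did. For Pcna all Het libraries reached it and for Clspn only Het 3 did, so these 2 values support no direction. Top2a had 40.2, 86.1 and 167 CPM in WT and 53.9, 73.3, 132 and 43.5 CPM in Het, inside the WT range.

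In inhibitory-like nuclei the G2/M sum was 203, 121, 157, 135.5, 198, 187, 130 and 140 CPM in WT 1 to WT 8 and 110.5, 124, 175 and 133 CPM in Het 1 to Het 4, with means of 159 ± 32.6 CPM (SD, n = 8) and 136 ± 27.7 CPM (SD, n = 4). The difference of -23.4 CPM was -36.4 CPM without Het 3 and -15.0 CPM without Het 1. Without the filter on low counts 28 of the 40 members had a negative log2 fold change (median -0.06), 19 of 22 in the G2/M list (median -0.32) and 9 of 18 in the S list, against 46.8% of all genes. As these members move together, the counts are a description. Kif23 had 12.8, 18.03 and 34.2 CPM in WT and 17.3, 8.32, 12.7 and 14.1 CPM in Het, with a log2 fold change of -0.51 (SE 0.22, edgeR adjusted p = 0.559). Top2a had 10.4, 15.6 and 28.0 CPM in WT and 7.32, 12.2, 17.4 and 9.67 CPM in Het, with a log2 fold change of -0.58 (SE 0.25, adjusted p = 0.563). At clustering resolution 0.8 the value of Top2a was 0.0892, in the other direction. At that resolution a cluster of 2859 nuclei scored highest for the inhibitory list. It was left unnamed, and so outside this class, with 8 of its 10 leading genes cell cycle genes. With the filter on low counts and WT 4 both left out, a setting chosen after the data were seen, Top2a was called (-0.60, edgeR adjusted p = 0.00792), when 0.819% of all genes were. With the filter alone left out it was not (adjusted p = 0.187, edgeR), when 0.405% were, and its adjusted p over all alternatives ran from 0.00792 to 0.961. Kif23 was at -0.33 without Het 2. For each gene the ranges overlapped, and 2 of the Het libraries for Top2a lay below all WT libraries.

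The mix of inhibitory-like clusters also differed on average between genotypes, in the same direction as the G2/M sum. The immature cluster 22 held 9.36% ± 3.90 of the inhibitory-like nuclei over the 8 WT and 5.72% ± 1.08 over the 4 Het libraries (mean ± SD), with 3.73% to 13.5% over the WT libraries. Within cluster 22 the G2/M sum was 1345 ± 337.5 CPM in WT and 1358 ± 612 CPM in Het. In the inhibitory-like nuclei outside it the sum was 83.6 ± 13.7 CPM in WT and 89.5 ± 14.5 CPM in Het. Within both parts the Het mean was thus not below the WT mean. This division was chosen after the values were seen and was not tested. It describes the G2/M sum and not Kif23, which had 147 UMIs in cluster 22 but 203.5 in cluster 24 and 159 in cluster 27. Top2a had 423.7, 9.2 and 12.2 UMIs in these clusters. WT 4 had the highest Kif23 level (34.2 CPM) and the lowest share of cluster 22.

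In vascular-like nuclei the G2/M sum was 380, 429, 461, 1422, 847, 500, 607 and 401 CPM in WT 1 to WT 8 and 425, 315, 664 and 653 CPM in Het 1 to Het 4. The means were 631 ± 354 CPM over the 8 WT and 514 ± 172 CPM over the 4 Het libraries (mean ± SD). WT 4 alone lay far above the rest, and without it the WT mean was 518 CPM, a ratio of 0.993. In the endothelial cluster 31 WT 4 had 2810 CPM, with 21 of 62 nuclei over the cut of 3 G2/M UMIs, and the other WT libraries 240.5 to 1040 CPM. The S sums were 435 ± 153 CPM in WT (400.0 CPM without WT 4) and 363 ± 111 CPM in Het, a difference of -71.2 CPM that was -36.5 CPM without WT 4 and -126 CPM without Het 3. Without the filter on low counts 32 of the 40 members had a negative log2 fold change (median -0.30), against 48.6% of all genes. Without WT 4 the count was 23 of 40 (median -0.09), and 12 of 22 for G2/M members, against 42.6% of all genes. Members that move together give no separate observations here.

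In Eomes-gated nuclei the G2/M sum was 523, 893, 161, 133, 376, 304, 1282 and 562 CPM in WT 1 to WT 8 and 441, 711, 1166 and 611 CPM in Het 1 to Het 4. The means were 529 ± 391 CPM over the 8 WT and 732 ± 310 CPM over the 4 Het libraries (mean ± SD). The difference of 203 CPM was 58.6 CPM without Het 3 and 311 CPM without WT 7. The gate joins clusters that differ in G2/M level, and the part of its mix of clusters by genotype was not tested. The values rest on 13 (WT 4) to 123 (Het 3) nuclei per library, and all Het libraries lay inside the WT range. The S sums were 452 ± 258 and 431 ± 158 CPM, a difference of -20.8 CPM that was -80.2 CPM without Het 3 and 64.6 CPM without WT 7. Without the filter on low counts 8 of the 40 members had an unadjusted edgeR p under 0.05, 1 of them lower, against 5.71% of all genes. In the G2/M list 21 of 22 were positive (median 0.85) and in the S list 12 of 18 (median 0.20), where 39.35% of all genes were negative. Without WT 4 as well 6 of 40 were past this p (5.30%), and 20 of 22 G2/M members were positive (median 0.76). Such counts are a description, since the members share cells and move together. The filter on low counts asked here for 63.6 CPM in at least 4 libraries. Of the 5 members tested, 3 reached it in at least 4 WT but not in all Het libraries, and 0 did the other way round. Atad2 had 25.1, 70.2 and 241 CPM in WT and 7.23, 49.3, 89.4 and 32.9 CPM in Het, with a log2 fold change of -0.85 (SE 0.56, edgeR adjusted p = 0.999). Among Het libraries only Het 3 reached the filter for Atad2, so its value supports no direction. Mki67 had 0, 51.1 and 140 CPM in WT and 39.8, 115, 145 and 93.2 CPM in Het, with a log2 fold change of 0.58 (SE 0.46, adjusted p = 0.999). With single libraries left out Atad2 ran from -1.59 (without Het 3) to -0.40 (without Het 1) and Mki67 from 0.29 (without Het 3) to 0.98 (without WT 8). WT 4, with 13 gated nuclei, was the library at 0 for Mki67. The gate took 0.789% of the WT and 0.867% of the Het nuclei on average (two-sided exact permutation test, p = 0.735, adjusted p = 0.858).

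The cycling cluster held 1.19% ± 0.393 of the kept nuclei over the 8 WT and 1.51% ± 0.363 over the 4 Het libraries (mean ± SD). Its G2/M sum was 4370 ± 648 CPM in WT and 4262 ± 736 CPM in Het, and its S sum 2942 ± 637 and 2726 ± 312 CPM, with overlap in each. The S difference of -216 CPM was -20.5 CPM without WT 4, a ratio of 0.993 in place of 0.927. The G2/M difference of -108 CPM was -334 CPM without Het 4 and 231 CPM without Het 3, and the ratio went from 0.975 to 1.01 without WT 4. Cluster 43 had 1972 ± 826 CPM in G2/M in WT and 1305 ± 685 CPM in Het, from 12 to 56 nuclei per library. That difference of -667 CPM was -444 CPM without WT 4 and -990 CPM without Het 2. Of the 4 members that passed the filter there 3 went the other way, with log2 fold changes of 0.12 for Mki67 (SE 0.54), 0.06 for Smc4 (SE 0.32) and 0.24 for Pola1. Atad2 was at -0.15. Without the filter 18 of 22 G2/M members were negative (median -0.73), against 44.5% of all genes, as a description of members that move together.

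In excitatory-like nuclei, the S sum was 164 ± 10.5 CPM over the 8 WT and 176 ± 4.87 CPM over the 4 Het libraries (mean ± SD), and the G2/M sum was 58.4 ± 9.34 and 67.6 ± 7.47 CPM, a difference of 9.16 CPM that was 5.57 CPM without Het 3. Without the filter on low counts 32 of the 40 members had a positive log2 fold change (median 0.23), where 50.3% of all genes were negative. This too is a description of members that move together. Brip1, named here after its values were seen, had 5.94, 6.58 and 8.15 CPM in WT and 9.50, 9.62, 11.1 and 7.87 CPM in Het, with a log2 fold change of 0.47 (SE 0.11, edgeR adjusted p = 0.199). Het 4 alone lay inside the WT range, and without Het 4 the value was 0.55 with an edgeR adjusted p of 0.0148, when 2.96% of all genes were called. Het 4 was the only female Het library, so that fit set male Het libraries against WT libraries of both sexes. In males alone Brip1 was not called, when 1.89% of all genes were. Shares of kept nuclei were 44.8% in WT and 40.4% in Het for this class (exact permutation p = 0.117, adjusted p = 0.820), 7.69% and 7.70% for glial-like, 20.4% and 21.7% for inhibitory-like and 4.73% and 5.09% for vascular-like nuclei.

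The 129 further cell cycle genes, in 4 lists, were read beside the members, and those named were chosen after their values were seen. None was called by edgeR in any group as fitted above, at 0.0% of all genes. Under alternatives Cdca2 was called in oligodendrocyte-like nuclei without the filter on low counts (log2 fold change -1.75, edgeR adjusted p = 0.00818), when 0.0321% of all genes were called, without Het 1 (-2.26, adjusted p = 0.0351), when 0.0887% were, and without the filter and WT 4 (-1.65, adjusted p = 0.0371), when 0.0405% were. In inhibitory-like nuclei Ccnd2, Cdca7 and Dlgap5 were called by edgeR, each lower in Het, without the filter and WT 4, when 0.819% of all genes were. In excitatory-like nuclei G2e3, a ubiquitin ligase gene named for G2/M, was called by DESeq2 (0.31, adjusted p = 0.0197), and G2e3, E2f3 and Hmgb1 were called by edgeR in males alone, when 1.89% of all genes were called, and without Het 4, when 2.96% were. G2e3 had 61.2 to 72.7 CPM over the WT and 72.9 to 94.1 CPM over the Het libraries, ranges that did not overlap. At an unadjusted p under 0.05, 8 of 43 tested were lower in Het and 0 higher in oligodendrocyte-like nuclei, against 2.71% of all genes lower, and these 8 all belonged to the mitosis list. Of the 8, 6 reached the filter on low counts in at least 4 WT but not in all Het libraries. Without the filter 21 of the 66 genes of that list were lower at this p and 0 higher, against 1.55% of all genes lower, and 9 were lower without WT 4 as well, against 1.53%. Among the 8 were Kif15 and Kif18a, kinesins of the spindle, Ncapd2 and Ncapg, subunits of condensin, Racgap1 and Diaph3, which act in cytokinesis, and Cdca2. The replication list had 0 of 14 past this p, the G1 and E2F/RB list 0 of 8 and the CDK inhibitors 0 of 1. Without WT 4, 3 of 42 were past it, all lower, against 4.56% of all genes in either direction. In the other groups the counts past it were 7 of 127 in all kept nuclei (2 higher, 9.89% of all genes in either direction), 4 of 81 in glial-like (0 higher, 6.73%), 9 of 87 in inhibitory-like (3 higher, 8.47%), 4 of 56 in vascular-like (0 higher, 3.75%), 10 of 90 in excitatory-like (8 higher, 12.4%), 0 of 20 in Eomes-gated nuclei (4.09%), 1 of 3 in cluster 43 (7.37%) and 2 of 68 in the cycling cluster (0 higher, 6.02%). Many of those lower in Het reached the filter in at least 4 WT but not in all Het libraries. This held for 4 of 4 in vascular-like, 3 of 4 in glial-like and 3 of 6 in inhibitory-like nuclei. It also held for 2 of 2 in the cycling cluster, so these counts support no direction. Without the filter 15 of the 66 mitosis genes were past this p in inhibitory-like nuclei, 13 of them lower, against 3.12% of all genes lower. Without WT 4 as well these were 13 and 11 (3.15%).

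Other genes followed the G2/M sum over the 54 clusters. Among 12296 genes outside the list with a mean of at least 5 CPM, those with the highest Pearson r of log2(CPM + 1) included Knl1 (0.976), Depdc1a (0.945), Prc1 (0.944), Kif15 (0.943), Rad54b (0.938), Uhrf1 (0.937), Wee1 (0.934), Rad51b (0.932) and Dek (0.931). Of these, Rad54b, Wee1, Rad51b and Dek were not in the list of 129 further cell cycle genes, and the others were.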

How the data were processed

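Single-nucleus RNA of 12 libraries, 8 WT and 4 Het, each from 1 animal, was counted by the authors. The deposited values are estimated counts (expected counts) of UMIs per gene and nucleus, made by the authors from alignments to mm10, with a UMI shared by several genes divided between them. The use of strand in counting and the annotation version were not given in the sources used here. Filtering left nuclei with 800 to 6000 UMIs and 300 to 3000 genes, no more than 1% of UMIs from mitochondria, and a ratio of log genes over log UMIs of 0.9 or more. Doublets were simulated in each library before this filter, and the 5% of its barcodes with most simulated doublets among their neighbours were removed. Clusters came from 3000 variable genes, 50 components, 20 neighbours and leidenalg 0.10.2 at resolution 1.5, without the members, and classes were named from marker lists. UMIs were summed per library and group, rounded and fitted with edgeR 4.0.16 (TMM, low counts filtered by filterByExpr, quasi-likelihood test, genotype as the only term) over all genes in R 4.3.3. The design written in advance took the values for whole counts, and they were estimated counts. Python was 3.11.15. The fitting script was tested on simulated data.

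The members and lists were chosen with earlier results of these data known. The genes named with values were, by rule, the 4 members of each list with the most UMIs, any member called, the 2 members with the smallest p in all kept, glial-like, oligodendrocyte-like, inhibitory-like and Eomes-gated nuclei, and the 10 genes most like the G2/M sum. Other genes were named after their values were seen. An item that the rule would name is not reported here. Alternatives were DESeq2 1.42.0, other size factors, no filter, sex as a covariate, males alone, a replicate block, each library left out, doublets or all barcodes kept, marker gates (at least 2 markers), resolution 0.8, an Eomes gate of 2 UMIs, other scales, and thinning to 800 UMIs. The cycling cluster as a group, the division at cluster 22, the means without WT 4, and no filter together with leaving out WT 4 were added after the data were seen. Sums over the lists carry no test. p-values measure the spread between animals, and intervals between libraries do not cover shared litters.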

Additional observations from a re-analysis of the deposited data

Results flagged for a closer look

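A sample far from the others of its group was looked for in 84 sets of values, and 5 were found, where chance alone gives about 1 set in 20. In vascular-like nuclei WT 4 had a G2/M sum of 1422 CPM, against 380 to 847 CPM in the other WT libraries. In Eomes-gated nuclei WT 7 had an S sum of 1050 CPM, against 257 to 506 CPM in the other WT libraries. Kif23 in inhibitory-like nuclei was 34.2 CPM in WT 4 and 12.8 to 21.8 CPM in the other WT libraries. Kif20b in oligodendrocyte-like nuclei was 136 CPM in WT 4 and 27.6 to 60.4 CPM in the others. Cenpf in oligodendrocyte-like nuclei was 32.8 CPM in Het 4, against 16.2 to 18.6 CPM in the other Het libraries. WT 4 accounts for 3 of the 5, and it also had the lowest inhibitory-like share of nuclei. The part of these libraries' makeup in the values was not tested.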

How the results depend on the processing

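No member was called under any alternative except Brip1 in excitatory-like nuclei without Het 4 (0 to 1 members over the libraries left out, edgeR adjusted p for Brip1 from 0.0148 to 0.677 over its alternatives) and Top2a in inhibitory-like nuclei without both the filter on low counts and WT 4 (1 member). The sign of the G2/M difference, Het minus WT, was kept in all 18 alternatives in glial-like, oligodendrocyte-like, vascular-like and excitatory-like nuclei and in cluster 43, in 19 of 19 in Eomes-gated, 17 of 19 in inhibitory-like and 16 of 18 in all kept nuclei and 13 of 16 in the cycling cluster. That of the S difference was kept in 11 of 18 in glial-like, 14 of 19 in Eomes-gated and 15 of 18 in cluster 43. Leaving out single libraries moved the glial-like S difference from -31.8 to 50.6 CPM, the G2/M difference of all kept nuclei from -11.2 to 15.0 CPM and that of the cycling cluster from -334 to 231 CPM. The share of all kept nuclei with at least 3 S UMIs kept its sign in 9 of 16. The S difference of inhibitory-like nuclei, Het minus WT, was -14.8 CPM, 2.2 CPM with Pola1 left out, and 0.10 as a mean of log2(CPM + 1). The G2/M difference was 18.5 CPM in excitatory-like nuclei by marker gates (9.16 by clusters) and 959 CPM in Eomes-gated nuclei at 2 UMIs (203 at 1 UMI), where no member passed the filter on low counts. The difference in percent of nuclei with at least 3 S UMIs was -0.0267 in excitatory-like and 2.27 in Eomes-gated nuclei, and with nuclei thinned to 800 UMIs and the cut lowered to 2 UMIs the signs were reversed, at 0.224 and -2.82. The difference in percent of kept nuclei was -0.02896 for glial-like nuclei at resolution 0.8 and -0.01909 for the Eomes gate of 2 UMIs, and with single libraries left out it ran from -0.285 to 0.306 for glial-like, -0.186 to 0.987 for vascular-like and -0.0100 to 0.209 for Eomes-gated nuclei. The log2 fold change of Top2a in inhibitory-like nuclei was 0.0892 at resolution 0.8, where a cluster led by cell cycle genes fell outside the class. The cause was not tested in any of these. The labels' replicate numbers pair no samples by source, and deviations of same-numbered libraries correlated from -0.194 to 0.434. With the replicate block 0 members were called in each of the 9 groups, and the members at an unadjusted p under 0.05 in oligodendrocyte-like nuclei went from 7 to 0, with Top2a at -0.27. That block left WT 4, WT 5, WT 7 and WT 8 without a Het library, so they did not bear on the genotype difference. 1 of 4 Het libraries correlated best with the WT library of its own number. Counts of 8 to 36 oligodendrocyte-like nuclei with at least 3 G2/M UMIs per library and 13 to 123 Eomes-gated nuclei limit what could be detected.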
